A study of Mus musculus with 14 samples.

Results

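The genes described here include those of the receptor for glial cell line-derived neurotrophic factor (GDNF), Ret and Gfra1. Grouped with them as target factors are 4 transcription factors, Bcl6b, Etv1, Etv4 and Etv5. All these genes are 6 of the 16593 genes with a symbol on the array. They were taken by symbol from the platform annotation, without regard to their values. They gave 8 of 25697 probes. Ret and Etv1 had 2 probes each and the other 4 genes had 1. A probe was tested where its detection p-value was under 0.01 on at least 2 arrays, which kept 13034 probes and 7 of these 8, among them at least 1 for each gene.

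Gene expression in 14 mouse cell samples was profiled on Illumina Mouse-8 v2 arrays, each sample on 1 array. Germline stem cells (GSC), self-renewing cells of the testis labelled unipotent, were 3 lines that carry an Oct4-GFP transgene on C57BL6 (OG2) and 3 that carry Oct4-GFP and LacZ on a cross of C57BL6 and 129sv (OG2-ROSA). The germline-derived pluripotent stem cells (gPS), described as clonal, were 3 OG2 and 3 OG2-ROSA lines with the same genotypes, so every GSC and gPS line carries Oct4-GFP, which is driven by the promoter of a pluripotency gene. Embryonic stem cells (ESC) were 2 arrays on C57BL6 with no transgene listed, and these may be technical replicates. Strain and transgene cannot be told apart between OG2 and OG2-ROSA. Sample titles of all OG2 and ESC arrays also carry a biological replicate mark that those of OG2-ROSA lack, with no meaning stated.

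In the testis, GDNF is secreted by somatic cells and binds Gfra1, a co-receptor anchored to the membrane of undifferentiated spermatogonia. The bound co-receptor activates Ret, a receptor tyrosine kinase, which signals through Src family kinases, PI3 kinase and ERK, and cultured mouse germline stem cells need GDNF to renew. Bcl6b, a POZ domain zinc finger repressor, and Etv5, an ETS factor of the same subfamily as Etv1 and Etv4, are induced by GDNF in these cells, while Etv4 and Etv5 are also known targets of FGF and ERK signalling in embryonic cells.

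The conversion of GSC to gPS lines was the main comparison. Ret was high on all 6 GSC arrays and undetected on all gPS and ESC arrays. Etv1, Etv4 and Etv5 rose in the gPS lines, Bcl6b fell, and the change of Gfra1 was not called. By limma's test with Benjamini-Hochberg adjustment over the 13034 probes, 6 of the 7 tested probes passed an adjusted p of 0.05, against a background of 63.9% of all tested probes, 30.4% higher and 33.5% lower in gPS. With a majority of all probes called, the count of 6 alone does not set these genes apart, and the values of each gene are given in turn.

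The labels were checked against marker genes, with intensities summed after background correction. Of the germline markers, Mael was detected on no array. The summed intensity of 7 germline markers was 16022 to 20468 on GSC, 216 to 533 on gPS and 309 to 324 on ESC arrays, and that of 7 pluripotency markers was 2952 to 7288, 58168 to 66857 and 57329 to 60359. The 26 fibroblast markers on the array summed to 9849 to 50356 on GSC, 5639 to 10420 on gPS and 5791 to 5808 on ESC arrays, with Postn and Fap detected on none. Of 22 fibroblast markers tested, 15 fell from GSC to gPS, 0 rose and 7 were not called. The 16 testis somatic markers summed to 796 to 1916 on GSC, 686 to 8305 on gPS and 2428 to 2469 on ESC arrays. Of these 16, 9 were detected on no array, among them Amh of Sertoli cells, Star and Insl3 of Leydig cells and Myh11 of peritubular cells. The Sertoli markers Wt1 and Cldn11 were detected on all 6 GSC arrays, as was Inhbb, and Dhh on 3. Rhox5, of the same list, was detected on 2 GSC, 5 gPS and 2 ESC arrays. Wt1 fell from GSC to gPS by 2.82 on the log2 scale (limma adjusted p = 1.30e-05), Cldn11 was at least 2.30-fold lower (adjusted p = 1.03e-06), and Dhh was called lower without a measurable fold. Rhox5 rose by 3.67 (limma adjusted p = 0.000849), Cyp11a1 was at least 1.14-fold higher in gPS (adjusted p = 0.0135), and Inhbb was not called (0.15, adjusted p = 0.7455). Of 6 testis somatic markers tested, 2 were thus called higher in gPS, 3 lower and 1 neither way. The part of such cells in the results was not tested. Mean array intensity was 614 to 639.5 on GSC arrays, 584 and 622 on ESC arrays and 513 to 579.9 on 4 gPS arrays, but 379 and 308 on gPS OG2-ROSA lines 1 and 2.

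**Figure D1:**
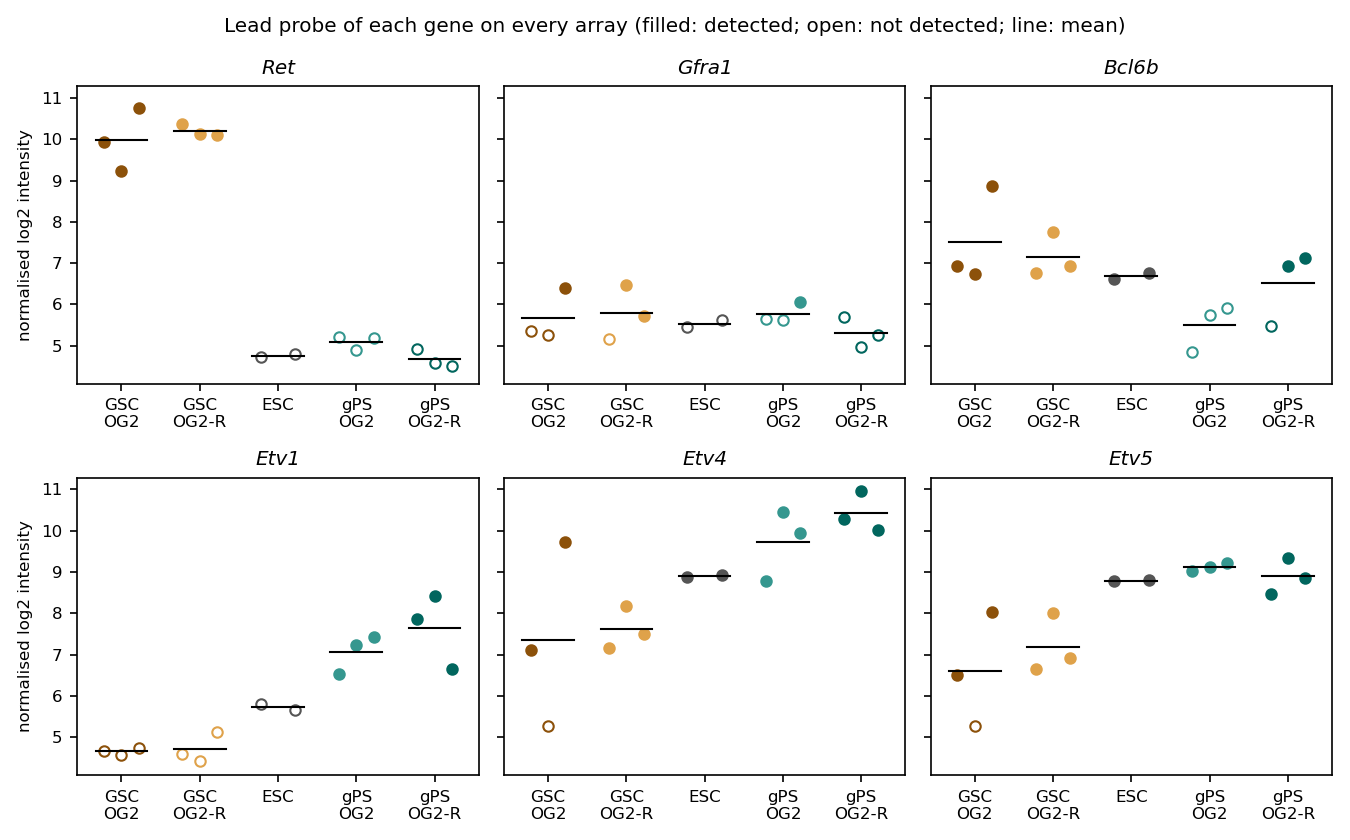
Normalised log2 intensity (vertical axis) of the lead probe of each gene on every array, in the 5 groups (OG2-R stands for OG2-ROSA). Filled points are detected, open points are not, and lines are group means. Ret is between 9.22 and 10.77 on the GSC arrays and below 5.3 elsewhere, while Etv1 is detected on the 6 gPS arrays and on no other.

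Ret, the signalling receptor, was measured by its brighter probe at a normalised log2 intensity of 9.93, 9.22 and 10.77 on GSC OG2 lines 1, 2 and 3 and of 10.37, 10.14 and 10.11 on GSC OG2-ROSA lines 1, 2 and 3. It stood at 4.72 and 4.80 on the ESC arrays. On the gPS arrays it was 5.21, 4.88 and 5.19 in OG2 and 4.91, 4.59 and 4.51 in OG2-ROSA. All 6 GSC arrays were high, the other 8 were below the limit of detection, and nothing lay between. Before normalisation the GSC intensities were 889 to 2234 and those of gPS 81 to 134.

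Ret fell from a mean of 10.09 ± 0.51 in GSC to 4.88 ± 0.29 in gPS (SD, n = 6 each), a log2 difference of -5.21 (SE 0.21, 95% interval -5.66 to -4.75, limma adjusted p = 3.46e-10). Because gPS gave no detected signal, the fold is a lower bound, the GSC mean over the lowest signal detected on the gPS arrays, and Ret was at least 15.99-fold lower. In bulk RNA, fewer cells of a type and less RNA per cell cannot be told apart. The decrease was at least 15.17-fold in OG2 (fitted log2 difference -4.88, adjusted p = 5.90e-08), where 49.4% of all probes were called, and at least 16.85-fold in OG2-ROSA (fitted log2 difference -5.54, adjusted p = 1.63e-08), where 50.1% were.

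By group mean, the order for Ret was GSC OG2-ROSA (10.20), GSC OG2 (9.97), gPS OG2 (5.10), ESC (4.76) and gPS OG2-ROSA (4.67). The 2 GSC groups overlapped and differed by 0.23 (SE 0.30, limma adjusted p = 1.00). The last 3 groups were all undetected and have no order. A second Ret probe, which the annotation ties to another RefSeq transcript of the gene, was 4.69 to 5.16 on GSC, 4.63 to 4.80 on gPS and 4.49 to 4.63 on ESC arrays. It was detected on no array and was not tested, so the pattern of Ret rests on 1 probe.

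Gfra1, the co-receptor that binds GDNF, stayed at the edge of detection. Its log2 intensity was 5.35, 5.26 and 6.39 on GSC OG2 lines 1 to 3 and 5.16, 6.48 and 5.71 on GSC OG2-ROSA lines 1 to 3. It was 5.45 and 5.61 on the ESC arrays, and 5.65, 5.62 and 6.05 in gPS OG2 and 5.69, 4.96 and 5.26 in gPS OG2-ROSA. The groups overlapped throughout, with GSC OG2 line 3 and GSC OG2-ROSA line 2 above all other arrays.

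Gfra1 was detected on 3 of 6 GSC arrays (OG2 line 3 and OG2-ROSA lines 2 and 3), on 0 of 2 ESC arrays and on 1 of 6 gPS arrays (OG2 line 3). The lowest detected signal lay at 5.54 to 5.73 on GSC arrays and at 5.96 to 6.22 on gPS and ESC arrays, so the same value can count as detected in GSC and not in gPS. The difference between gPS and GSC was -0.19 (SE 0.25, 95% interval -0.73 to 0.35, limma adjusted p = 0.528). With the mean of the fibroblast markers as a covariate it was -1.02 (adjusted p = 0.035). The group means ran from 5.78 in GSC OG2-ROSA to 5.30 in gPS OG2-ROSA, and no neighbours in this order differed beyond their spread.

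**Figure D2:**
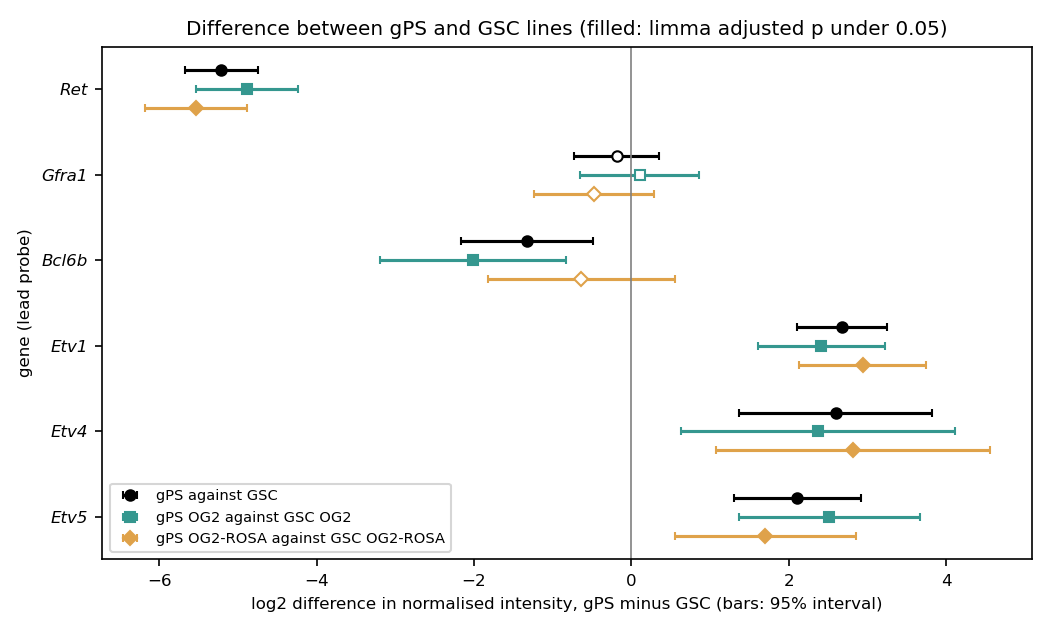
Log2 difference in normalised intensity between gPS and GSC lines (horizontal axis) for the lead probe of each gene, over both backgrounds and within OG2 and OG2-ROSA. Bars are 95% intervals and filled symbols have a limma adjusted p under 0.05. Ret lies near -5, Gfra1 near 0, Bcl6b below 0 and the 3 ETS genes between 1.70 and 2.94.

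Bcl6b, the POZ zinc finger repressor, was detected on all 6 GSC arrays, at 6.92, 6.74 and 8.87 in OG2 and 6.77, 7.75 and 6.92 in OG2-ROSA. The ESC arrays gave 6.61 and 6.77, both detected. The gPS OG2 lines gave 4.85, 5.73 and 5.91, none detected, and the gPS OG2-ROSA lines gave 5.48, 6.92 and 7.13, of which the last 2 were detected. The gPS OG2 lines were thus below every GSC and ESC array, while gPS OG2-ROSA lines 2 and 3 lay within the GSC range. Within OG2, gPS and GSC did not overlap, as for 60.1% of all tested probes.

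Over both backgrounds Bcl6b fell by 1.32 on the log2 scale, from 7.33 ± 0.84 to 6.005 ± 0.87 (SD, n = 6 each, 95% interval -2.16 to -0.49, limma adjusted p = 0.00898). In OG2 it was at least 2.76-fold lower (log2 difference -2.01, SE 0.55, adjusted p = 0.00839; -1.33 without GSC OG2 line 3, still called), and in OG2-ROSA the difference was -0.64 (95% interval -1.82 to 0.55, adjusted p = 0.357). The difference between the backgrounds, 1.38 (95% interval -0.30 to 3.05), was not called (unadjusted p = 0.0995, adjusted p = 0.94; 0.00767% of all probes were called in this test). gPS OG2-ROSA exceeded gPS OG2 by 1.01 (95% interval -0.18 to 2.19, adjusted p = 0.525), a comparison with 0.222% of all probes called. When the dim arrays of gPS OG2-ROSA lines 1 and 2 were left out, the overall call of Bcl6b was lost (-1.01, adjusted p = 0.0638), and with the fibroblast covariate it was lost too (-1.38, adjusted p = 0.14), as was the call in OG2, where the difference was -2.10 (adjusted p = 0.159). By group mean the order was GSC OG2 (7.51), GSC OG2-ROSA (7.14), ESC (6.69), gPS OG2-ROSA (6.51) and gPS OG2 (5.50), and each pair of neighbours in it overlapped.

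The ETS genes moved the other way. Proximal promoters are shown for Etv1, detected on no GSC array, and Etv5, detected on 5 of 6, to set side by side 2 genes that rose together. Each is the RefSeq sequence of the 250 bases before the first listed of 2 annotated starts, 5′ to 3′ on the gene's strand in build GRCm38.p6. Etv1 lies at chr12:38779832-38780081 on the plus strand and Etv5 at chr16:22439571-22439820 on the minus strand. Capitals mark AGGAAG, a core that PEA3 type ETS factors can bind.
Etv1: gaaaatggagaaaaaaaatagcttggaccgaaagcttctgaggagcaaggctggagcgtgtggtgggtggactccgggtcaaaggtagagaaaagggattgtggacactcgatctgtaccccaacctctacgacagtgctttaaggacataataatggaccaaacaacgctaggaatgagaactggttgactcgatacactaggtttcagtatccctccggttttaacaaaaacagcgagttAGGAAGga
Etv5: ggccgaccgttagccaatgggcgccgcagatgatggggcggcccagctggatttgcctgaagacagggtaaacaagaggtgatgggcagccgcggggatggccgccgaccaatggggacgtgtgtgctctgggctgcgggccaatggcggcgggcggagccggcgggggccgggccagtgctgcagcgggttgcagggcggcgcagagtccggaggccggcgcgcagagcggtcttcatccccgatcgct
The Etv1 window has a GC content of 46.4% and 1 match, 8 bases before the start, and the Etv5 window has 71.2% and none. At the second listed start the GC content is 44.4% for Etv1 and 62.0% for Etv5, with no match in either window. AGGAAG, searched on both strands, was present in 29.5% of 32851 promoter windows of that length. CCGGAAGT, a longer ETS sequence, was present in 2.9% and in none of the 5 windows that the table holds for Etv1, Etv5 and Gfra1. A match is only a match of letters and was not tied to binding here.

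Etv1, an ETS activator, was detected on the 6 gPS arrays and on no other. Its lead probe was 6.54, 7.24 and 7.42 in gPS OG2 and 7.87, 8.41 and 6.64 in gPS OG2-ROSA. GSC arrays gave 4.66, 4.56 and 4.74 for the OG2 lines and 4.58, 4.41 and 5.12 for the OG2-ROSA lines, and ESC arrays 5.81 and 5.66. Every gPS array was above every other array, and gPS OG2 line 1 and gPS OG2-ROSA line 3 were the lowest of them.

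Etv1 rose from GSC to gPS by a log2 difference of 2.67 (SE 0.26, 95% interval 2.11 to 3.24, limma adjusted p = 1.33e-06), at least 3.33-fold. The increase was at least 2.86-fold in OG2 (log2 difference 2.41, adjusted p = 0.000157) and at least 3.88-fold in OG2-ROSA (2.94, adjusted p = 2.81e-05). A second probe for the same transcript read 4.46 to 4.997 over the 6 GSC arrays, 5.69 and 5.82 in ESC, and 6.55 to 8.13 in gPS. It gave a difference of 2.53 (SE 0.24, adjusted p = 9.82e-07), at least 3.09-fold, so the estimates of both probes lay within 1 SE of each other. The group means were 7.64 in gPS OG2-ROSA and 7.07 in gPS OG2, which overlapped, and the remaining groups were undetected and have no order.

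Etv4 had the widest spread among these genes within GSC. Its log2 intensity was 7.10, 5.26 and 9.72 on GSC OG2 lines 1 to 3 and 7.15, 8.18 and 7.50 on GSC OG2-ROSA lines 1 to 3. The ESC arrays gave 8.87 and 8.94. It was 8.78, 10.46 and 9.95 in gPS OG2 and 10.30, 10.96 and 10.02 in gPS OG2-ROSA. GSC OG2 line 2 was undetected, whereas GSC OG2 line 3 was above both ESC arrays and above gPS OG2 line 1, so GSC and gPS overlapped in OG2 and not in OG2-ROSA, where 55.2% of all tested probes did not overlap.

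Etv4 rose from 7.49 ± 1.46 to 10.08 ± 0.73 (SD, n = 6 each), a log2 difference of 2.59 (SE 0.57, 95% interval 1.37 to 3.82, limma adjusted p = 0.00133). The difference was 2.37 in OG2 (SE 0.81, adjusted p = 0.0262) and 2.82 in OG2-ROSA (SE 0.81, adjusted p = 0.0104). Without GSC OG2 line 3 the difference was 3.55 in OG2 (adjusted p = 0.00032) and 3.18 overall. The OG2 call was lost when GSC OG2 line 2 was left out (1.32, adjusted p = 0.124), and also without GSC OG2 line 1 or gPS OG2 line 2 or 3 (adjusted p = 0.0690 to 0.0916), with no filter on dim probes (0.0668) and with no other groups in the fit (0.0850). The OG2-ROSA call was lost without the dim arrays (adjusted p = 0.133). With the fibroblast covariate the overall difference was 1.69 (adjusted p = 0.194). The group means ran from GSC OG2 (7.36) over GSC OG2-ROSA (7.61), ESC (8.91) and gPS OG2 (9.73) to gPS OG2-ROSA (10.43), and only GSC OG2-ROSA and ESC did not overlap among neighbours.

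Etv5, which mouse spermatogonial stem cells need for their maintenance, was 6.51, 5.28 and 8.03 on GSC OG2 lines 1 to 3 and 6.64, 8.003 and 6.93 on GSC OG2-ROSA lines 1 to 3. The ESC arrays gave 8.78 and 8.81. It was 9.02, 9.13 and 9.21 in gPS OG2 and 8.48, 9.35 and 8.85 in gPS OG2-ROSA. All gPS arrays were above all GSC arrays, the ESC arrays lay among the gPS values, and GSC OG2 line 2 was again undetected.

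Etv5 rose by 2.11 (SE 0.38, 95% interval 1.30 to 2.92, limma adjusted p = 0.000265), from 6.90 ± 1.03 to 9.01 ± 0.31 (SD, n = 6 each). The increase was 2.51 in OG2 (SE 0.53, adjusted p = 0.00163) and 1.70 in OG2-ROSA (SE 0.53, adjusted p = 0.0167), and these differed by -0.81 (95% interval -2.43 to 0.81, adjusted p = 0.94). The OG2 increase was 1.85 without GSC OG2 line 2 and 3.23 without GSC OG2 line 3, both called. Leaving out GSC OG2-ROSA line 1 or 3, or gPS OG2-ROSA line 2, ended the OG2-ROSA call (adjusted p = 0.0574 to 0.0720), which was also lost without both dim arrays (0.111) and with arrays scaled to equal medians (0.072). With the fibroblast covariate the overall difference was 1.29 (adjusted p = 0.118). By group mean the order was gPS OG2 (9.12), gPS OG2-ROSA (8.89), ESC (8.79), GSC OG2-ROSA (7.19) and GSC OG2 (6.61), where ESC and GSC OG2-ROSA were the only neighbours without overlap. Over the 6 GSC and 6 gPS arrays, values did not overlap for Ret, both Etv1 probes and Etv5, beside 38.5% of all tested probes.

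The comparison of GSC with ESC asked how these genes stood against pluripotent cells that had no germline history. Of the 7 tested probes 4 were called, beside 50.5% of all probes (26.4% higher and 24% lower in GSC). Ret was at least 15.7-fold higher in GSC (log2 difference 5.33, SE 0.30, limma adjusted p = 2.36e-08). Etv5 was lower in GSC by a log2 difference of -1.89 (SE 0.53, 95% interval -3.04 to -0.75, adjusted p = 0.00922), with every GSC array below both ESC arrays, beside 65.5% of all probes without overlap. The other 2 calls were the Etv1 probes, which were undetected in both groups and have no fold. Bcl6b differed by 0.64 (95% interval -0.54 to 1.83, adjusted p = 0.352) and Etv4 by -1.42 (95% interval -3.16 to 0.32, adjusted p = 0.159). Leaving out either ESC array ended the call of Etv5 (adjusted p = 0.0616 and 0.0654), as did averaging both into 1 sample (0.0645) and the fibroblast covariate (0.435). Without GSC OG2 line 3, Etv4 was lower in GSC (-2.01, adjusted p = 0.00645).

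gPS and ESC lines were compared to see whether the pluripotent cells of germline origin differed from embryonic ones. None of the 7 tested probes was called, beside 0.345% of all probes. At an unadjusted p under 0.05, 2 of the 7 passed, beside 9.74% of all probes, and both measure the same Etv1 transcript. Etv1 stood 1.62 higher in gPS (SE 0.37, 95% interval 0.82 to 2.43, unadjusted p = 0.00076, limma adjusted p = 0.102), at least 2.36-fold, with every gPS array above both ESC arrays. Such separation was seen for 12.9% of all probes. Its second probe differed by 1.49 (95% interval 0.75 to 2.23, adjusted p = 0.102). The lead probe was called when gPS OG2-ROSA line 3 was left out (1.87, adjusted p = 0.00511), and with weights for array quality as well (adjusted p = 0.00153), settings that raised the share of all probes called to 1.09% and 6.11%. Bcl6b differed by -0.68 (95% interval -1.87 to 0.50), Etv4 by 1.17 (-0.56 to 2.91) and Etv5 by 0.21 (-0.93 to 1.36), intervals that leave room for differences of over 1 on the log2 scale.

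No probe of these genes was called between the backgrounds. Among GSC lines 0 of 7 were called, beside 0.00767% of all probes, and among gPS lines 0 of 7, beside 0.222%.

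Within the GSC lines Etv4 varied with Etv5 and with Bcl6b. Etv4 and Etv5 had the same rank order over the 6 lines, with a Pearson r of 0.944 (exact permutation p = 0.00139, adjusted p = 0.0181 over 13 relations) and a Spearman rho of 1.0 (exact permutation p = 0.00278, adjusted p = 0.0361). On GSC OG2 line 2 both genes were below detection, and those values enter the correlations over 6 lines. Without the 2 lines farthest from the median of Etv4, which include that line, r was 0.993 over 4 lines. Bcl6b and Etv4 had an r of 0.874 (exact permutation p = 0.00556, adjusted p = 0.0361) and a rho of 0.829 (adjusted p = 0.126), and r was 0.689 without the 2 lines farthest from the median of Bcl6b. Each background has 3 lines, too few for a value within it.

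Ret and Etv4 had an r of 0.916 over the GSC lines (exact permutation p = 0.0347, adjusted p = 0.0752, rho 0.829), which fell to -0.0075 without the 2 lines farthest from the median of Ret. Ret and Etv5 behaved alike, with r of 0.833 and then 0.045, so both relations rest on those 2 lines. Gfra1 and Etv5 had an r of 0.875 (exact permutation p = 0.0194, adjusted p = 0.0752), which became 0.477 over 4 lines, and values of Gfra1 below detection enter it. Over the 6 gPS lines Etv4 and Etv5 had an r of 0.176 (exact permutation p = 0.722) and Etv1 and Etv4 of 0.797 (exact permutation p = 0.0472, adjusted p = 0.0767).

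**Figure D3:**
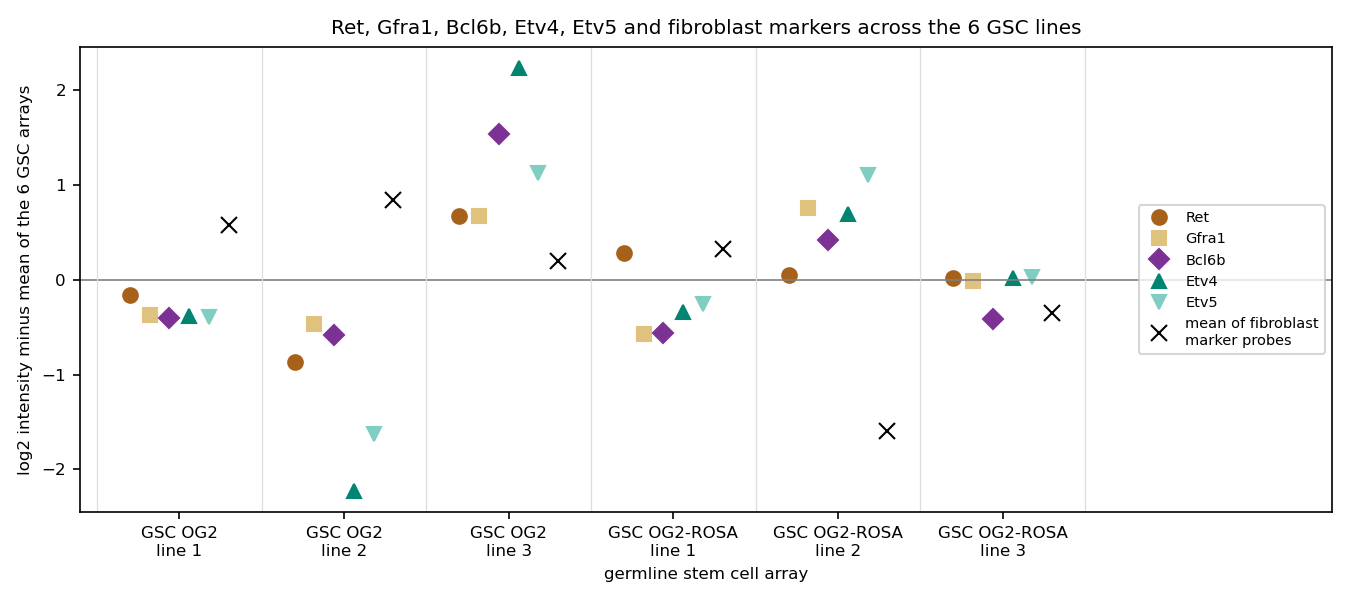
Log2 intensity of 5 genes on each of the 6 GSC arrays minus its mean over them (vertical axis), with the mean of the tested fibroblast marker probes as crosses. Etv4, Bcl6b, Etv5 and Ret are highest in OG2 line 3 and lowest in OG2 line 2, and the fibroblast mean is highest in OG2 line 2 and lowest in OG2-ROSA line 2.

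OG2 line 3 was the highest GSC line for Ret, Bcl6b, Etv4 and Etv5, and OG2 line 2 was the lowest for the same 4 genes. Some margins were small. Etv5 was 8.03 in OG2 line 3 and 8.003 in OG2-ROSA line 2, and Bcl6b was 6.74 in OG2 line 2 and 6.77 in OG2-ROSA line 1. For Gfra1 the highest line was OG2-ROSA line 2 and the lowest OG2-ROSA line 1. Of the 9895 probes detected on all GSC arrays, 13.9% were highest in OG2 line 3, 22.7% were lowest in OG2 line 2, and 5.11% were both. Etv4 and Etv5 were undetected in OG2 line 2 and are not among these probes. The measure of highest and lowest line was chosen after the values were seen. The mean log2 intensity of the fibroblast markers was 9.25, 9.51 and 8.87 in OG2 lines 1 to 3 and 8.998, 7.08 and 8.32 in OG2-ROSA lines 1 to 3. That of the tested germline markers was 10.70, 10.92 and 10.31 in OG2 lines 1 to 3 and 10.51, 10.64 and 10.70 in OG2-ROSA lines 1 to 3. It was thus highest in OG2 line 2 and lowest in OG2 line 3. The part of either marker set in these differences between lines was not tested.

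Other genes, from the lists of ERK feedback and GDNF-responsive spermatogonial genes, followed that order of lines in part. Of 7 ERK feedback genes detected on all GSC arrays, 6 were highest in OG2 line 3 and 3 of them were also lowest in OG2 line 2. Among these, Dusp6, an ERK phosphatase, ran from 8.29 to 11.26, and Egr1 from 12.07 to 13.64. Of 8 GDNF-responsive spermatogonial genes 3 were both, namely Egr2 (6.56 to 10.72), Pou3f1 (8.56 to 10.62) and Ccnd2 (8.74 to 11.86). In the same list Foxo1 and Sall4 were lowest in OG2 line 3, and Tec was highest in OG2 line 2. Nanos2 was lowest in OG2 line 2 but highest in OG2-ROSA line 2, as was Id4. Of 16 adaptors and kinases 2 were highest in OG2 line 3, 2 were lowest in OG2 line 2 and 1 was both. Of 7 other ETS genes 0 were highest in line 3 and 0 lowest in line 2.

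The wider pathway was followed with lists of other genes, each at 1 probe per gene, again between gPS and GSC, where the median of all tested probes was -0.04. The counts of each list stand beside 63.9% of all tested probes called, 30.4% higher and 33.5% lower in gPS. Among 10 GDNF family ligands and receptors on the array 3 were tested, 2 were called lower and 0 higher (median of the fitted values -0.73). Gfra3, the artemin co-receptor, was detected on 5 GSC and 0 gPS arrays and was at least 1.02-fold lower (limma adjusted p = 6.17e-05). Nrtn, which encodes the ligand neurturin, was detected on 4 GSC and 0 gPS arrays, and its GSC mean of 5.70 lay below the lowest signal detected on any gPS array, so it has no fold (adjusted p = 0.00564). Gdnf itself was detected on 0 GSC, 0 ESC and 1 gPS arrays and was not tested.

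Among 17 tested adaptors and kinases that act below Ret, 5 rose, 2 fell and 10 were not called (median -0.17). Gab1, a docking protein for PI3 kinase, rose by 2.10 (SE 0.34, limma adjusted p = 0.000108). Pik3cb, a catalytic subunit of PI3 kinase, rose by 0.88, while the catalytic Pik3ca and the regulatory Pik3r2 fell by 1.02 and 0.93. Calls among these adaptors and kinases went both ways, as did those of all tested probes (30.4% higher and 33.5% lower in gPS).

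Of 12 tested genes in the list of GDNF-responsive spermatogonial genes, 9 fell, 2 rose and 1 was not called (median -1.68). Whether each of them responds to GDNF was not tested. Nanos2, an RNA-binding protein that keeps spermatogonia undifferentiated, was at least 9.20-fold lower (limma adjusted p = 3.16e-09), from 8.03 to 10.12 in GSC to 5.04 to 5.31 in gPS. Ccnd2, a D-type cyclin, fell by 4.10 (SE 0.51). Egr2, a zinc finger activator, fell by 2.96 (SE 0.55). The genes that rose were Dusp4, by 3.46 (SE 0.38), and Sall4, a zinc finger factor shared by spermatogonia and pluripotent cells, by 0.53, the latter named after its value was seen. Bcl6b went with the larger number of this list and Etv5 with the smaller.

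Of 9 tested ERK feedback genes 4 rose, 2 fell and 3 were not called (median 0.49). Those that rose were Dusp4, counted in both lists, Spry4, a Sprouty inhibitor of receptor kinase signalling, by 2.42 (SE 0.25, limma adjusted p = 1.70e-06), Spred1 by 1.56 (SE 0.18) and Dusp6 by 1.08 (SE 0.38, adjusted p = 0.0235). Ier3 and Il17rd, named after their values were seen, fell by 0.91 and 0.49. Spry4 was 5.31 to 6.54 in GSC and 7.05 to 8.94 in gPS, without overlap, whereas Dusp6 overlapped through GSC OG2 line 3.

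Of 11 other ETS factors tested, 4 were called higher, 5 lower and 2 neither way (median 0.31), and Erg, among those lower, was too dim for a fold. Elf3, an epithelial ETS factor, rose at least 8.87-fold (limma adjusted p = 2.52e-08), and Etv2 rose by 1.45 (SE 0.42). Ets1 fell by 3.28 (SE 0.21, adjusted p = 2.23e-08). Of 6 relatives of Bcl6b tested, 3 were called lower, 0 higher and 3 neither way (median -0.23), and Hic1, among those lower, was too dim for a fold. Bcl6, its closest relative, fell by 3.66 (SE 0.25, adjusted p = 4.34e-08), from 9.20 to 10.63 in GSC to 5.66 to 6.67 in gPS, without overlap.

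**Figure D4:**
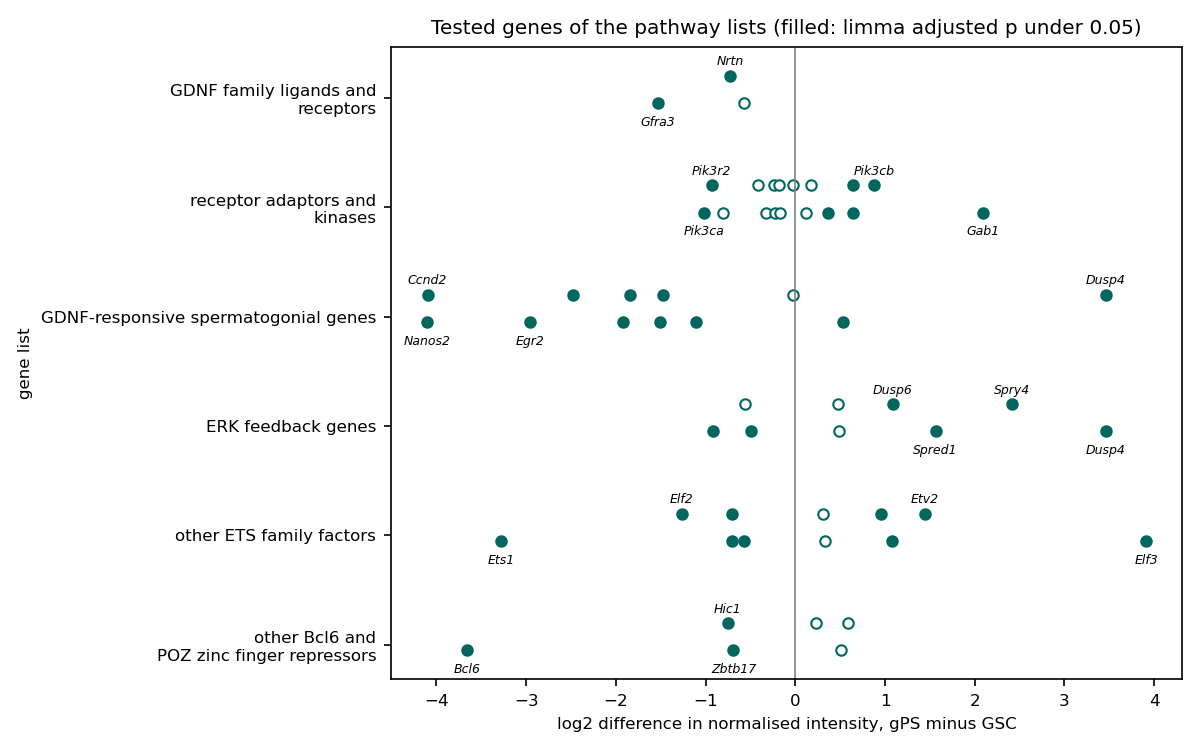
Log2 difference between gPS and GSC (horizontal axis) of each tested gene of the pathway lists (vertical axis), at 1 probe per gene. Filled points have a limma adjusted p under 0.05, the most changed genes are labelled, and the point of a gene undetected in GSC or gPS is a fitted value with no measured size. The GDNF-responsive genes lie mostly below 0, and the ERK feedback and ETS genes lie on both sides.

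Between gPS and ESC the same lists gave 0 calls, except 1 adaptor that was lower in gPS, beside 0.345% of all probes called. Between GSC and ESC, 9 of the 12 GDNF-responsive genes were higher and 2 lower in GSC, and 1 of the 9 ERK feedback genes was higher and 3 were lower. Of all probes, 26.4% were higher and 24% lower in GSC. These comparisons share the GSC or gPS arrays with the main one.

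The genes whose pattern over the 14 arrays was most like each of these were ranked by Pearson r, as a description. For Ret they were Hoxb7 (0.995), Nlrp4c (0.994) and Gnat2 (0.994). For Etv1 they were Ccnd3 (0.972), Myc (0.969) and Ccdc137 (0.967), and for Etv5 Kif11 (0.95), Pif1 (0.948) and Cdk1 (0.946). Etv4 was closest to 2 probes of Zfp532 (0.952 and 0.939) and to Epha2 (0.926). Bcl6b reached no more than 0.862, with Cherp, and Gfra1 0.786, with Uhrf1.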

How the data were processed

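RNA of 14 samples was measured on 1 array each. The deposited probe intensity is a linear signal without background subtraction, per the file headers and its values, and each value was deposited with a detection p-value. The authors' own processed values, whose log2 scale was inferred, served as an alternative. BeadStudio 3.2, RMA and lumi are named in the submitters' processing notes, with no role given. Groups came from the labels.

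Intensities were background corrected and quantile normalised with neqc (offset 16) in limma 3.58.1 under R 4.3.3, which gives log2 values. Gene symbols came from the platform annotation (23978 probes with 1 symbol, 0 with several, 1719 unlisted). All 14 arrays entered 1 linear model with a mean for each of the 5 groups (lmFit, eBayes). P-values of 8 contrasts were adjusted over the 13034 tested probes by Benjamini-Hochberg, and an adjusted p under 0.05 was called. The procedure was tested on simulated data. The spread is shared by all groups, and precision is limited by how many arrays there are. Where nothing says that samples came from separate cultures, p-values measure the spread between these samples. For a group undetected throughout, the lower bound of a fold sets the bright mean against, per array, the higher of the lowest detected signal and the probe's own value. Correlations over 6 lines were tested by exact two-sided permutation.

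The genes and lists were chosen with earlier results of these data known. Up to 4 called genes with the largest change were named per list, and up to 3 genes alike per member. Alternatives covered background correction, scaling, probe filter, the groups fitted, line number as a block, array weights, and leaving out arrays.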

Additional observations from a re-analysis of the deposited data

How the results depend on the processing

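Over 32 followed differences, 885 alternative values were computed: 853 kept their direction and their side of the threshold, 25 kept only the direction and lost the call, 7 gained a call and 0 turned their direction. Some alternatives changed only arrays outside the comparison, such as ESC arrays for gPS against GSC. There the difference itself could not change, so its direction was fixed and only the call could move. The mean of the fibroblast markers as a covariate ended several calls: Etv4 (1.69), Etv5 (1.29) and Bcl6b (-1.38) lost theirs between gPS and GSC, Gfra1 gained one (-1.02), 3 member probes were left in OG2 and 1 between GSC and ESC. Calls over all probes fell with it too, from 63.9% to 37.2% between gPS and GSC, from 49.4% to 19.4% in OG2 and from 50.5% to 26.3% between GSC and ESC. Without both dim arrays Bcl6b was at -1.01 and 3 member probes were called in OG2-ROSA, beside 42.2% of all probes. Between GSC and ESC the 4 calls became 2 with a normexp offset of 50 (50.6% of all probes called) and 2 without background correction (49.6%). They became 1 with the ESC arrays averaged (33.1%) and 1 to 5 with 1 array left out (33.5% to 55.4%). Between gPS and ESC the 0 calls became 2 with array weights, where all calls went from 0.345% to 6.11%, and 0 to 2 with 1 array left out, with 1.09% of all probes called without gPS OG2-ROSA line 3. The causes were not tested.

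With arrays scaled to equal medians, the share of higher genes among all calls between gPS and GSC went from 47.6% to 34.7% and the median of all probes to -0.28, and with medians over probes detected on all arrays, chosen after seeing the data, it was 49.9%. Ret, Bcl6b and the ETS genes kept their direction under both. With line number as a replicate block, 6 member probes were called between gPS and GSC, beside 63% of all probes. In OG2 6 were called (47.9% of all probes), in OG2-ROSA 5 (48.7%) and between GSC and ESC 3 (47.7%). Same-number deviations correlated at -0.16 to 0.0039 in 6 pairs, and 0 of 6 GSC lines correlated best with its own number. Pairs of different numbers reached no more than 0.19, so these correlations cannot decide whether the numbers pair the lines. Signals near the limit of detection leave Gfra1 on 10 of 14 arrays, the second Ret probe, and Etv1 in GSC and ESC without a measured level.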
